A study of Mus musculus with 9 samples.

Results

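The clustered protocadherins are cell adhesion proteins of neurons encoded in the alpha, beta and gamma gene clusters, and 54 of the 31052 genes in the deposited table belong to them. Members were chosen by symbol: Pcdha, Pcdhac, Pcdhb, Pcdhga, Pcdhgb or Pcdhgc followed by a number. They comprise 11 alpha genes (9 variable isoforms and the C-type isoforms Pcdhac1 and Pcdhac2), 21 beta genes and 22 gamma genes (12 of type A, 7 of type B and the C-type isoforms Pcdhgc3, Pcdhgc4 and Pcdhgc5). Other genes of these clusters were not analysed here. Nuclear RNA had been sequenced in 9 libraries of pyramidal cells, the excitatory output neurons of the hippocampus, from mice of genotype WT. Cells were classed by two-photon imaging in the living animal during navigation, 5 libraries as place cells, neurons active where the animal crosses a certain spot, and 4 as silent cells, and their nuclei were tagged with light and collected. Both groups share the tagging, the nuclear isolation and library preparation with SMART-Seq mRNA LP, made for low amounts of polyadenylated RNA. The sources used here do not give age, sex, strain, the number of nuclei in each library or whether each library is a separate animal, so p-values measure only the spread between these libraries, which may be technical.

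Each clustered protocadherin gene has a large first exon with its own promoter, and a neuron switches on a limited, largely random choice of the variable promoters, while C-type promoters are used in a more regular way. Alpha isoforms are spliced to constant exons shared by the whole alpha cluster and gamma isoforms to constant exons shared by the gamma cluster, whereas beta genes have no constant exon. The proteins form combinatorial assemblies that bind the same isoforms on another membrane, through which neurites of a cell recognise and avoid each other, and they are needed for axon spacing, dendrite patterning and neuron survival.

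Levels are given in RPM, reads per 1000000 after scaling each library to a common depth. Reads per library, in units of 1000000, ran from 14.05 to 22.4, so that 3 reads, the upper limit that a count of 0 allows for counting error, correspond to 0.13 to 0.21 RPM. The sources used here do not say how reads on shared exons were counted. Members with no reads stood beside expressed members of the same cluster in every library with reads of that cluster, so reads on constant exons had not been added to every isoform, and a level here describes mainly the member's own exon. Members are similar in sequence, and unspliced transcripts begun upstream can cover the exons of members downstream, so that the split of reads between neighbours is uncertain. Values of different genes are compared per kilobase of exon that no other gene overlaps, which was available for 52 members. In bulk nuclear RNA, fewer cells using an isoform and less RNA per cell cannot be told apart.

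The pyramidal marker list was high in both groups, with all 8 markers together at 1884 to 2890 RPM in place and 2379 to 3119 in silent libraries. Libraries differed widely within each group, and the leading principal components set apart silent replicate 1, silent replicate 4, place replicate 3 and place replicate 1 in turn. Y-linked transcripts (4 genes) summed to 733 to 1307 RPM in the 4 silent libraries and to 1015 in place replicate 1. In the other 4 place libraries they summed to at most 0.27. Their presence thus nearly follows the groups. For any difference between place and silent libraries below, cell class and what goes with Y-linked transcripts cannot be told apart. The 11 oligodendrocyte markers summed to 198 to 3549 RPM in place and 118 to 585 in silent libraries, with up to 3 and 3 to 5 markers at 0 and Ermn at 0 in 7 of the 9 libraries. The 7 astrocyte markers summed to 2477 RPM in place replicate 3 and to 168 to 490 in the other 8 libraries, with Aqp4 at 0 in 6 of the 9. The 7 interneuron markers summed to 27.3 to 211 and 66.1 to 763 RPM, with Slc32a1 at 0 in 6 libraries. Of the 763 RPM, in silent replicate 3, Vip held 640, and Vip was at 0 in 7 libraries. The ranges of the other lists overlapped too. The 6 microglial markers summed to 1.39 to 160 and 20.5 to 195 RPM (P2ry12 at 0 in 5 libraries). The 4 oligodendrocyte precursor markers summed to 0 to 105 and 0 to 154 RPM (Pdgfra at 0 in 6). The 4 choroid plexus and ependymal markers summed to 114 to 469 and 58.6 to 116 RPM (Ttr at 0 in 5). Of the 469 RPM, in place replicate 1, Enpp2 held 435, and Foxj1 was at 0 in 7 libraries.

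Each library held a different selection of members. Members with at least 1 read numbered 25, 44, 29, 41 and 29 in place replicates 1 to 5 and 16, 29, 28 and 23 in silent replicates 1 to 4, that is 33.6 ± 8.35 (SD, n = 5) and 24.0 ± 5.94 (SD, n = 4). The ranges overlap, and place replicates 2 and 4 lie above every silent library. Numbers expected at the depth of the shallowest library were close to these, from 24.9 to 44.0 in place and from 16.0 to 28.7 in silent libraries. The share of all genes detected was also higher in place libraries, at 59.9 ± 6.24% (SD, n = 5) against 51.8 ± 5.17% (SD, n = 4), beside 62.2 ± 15.5% and 44.4 ± 11.01% of the members, and the part of this in the member counts was not tested. Any pair of libraries shared 11 to 35 members. Place replicates 2 and 4 shared 35, which is 79.5% of the members in the first and 85.4% of those in the second, and silent replicates 1 and 3 shared 11, 68.8% and 39.3% of theirs.

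**Figure D1:**
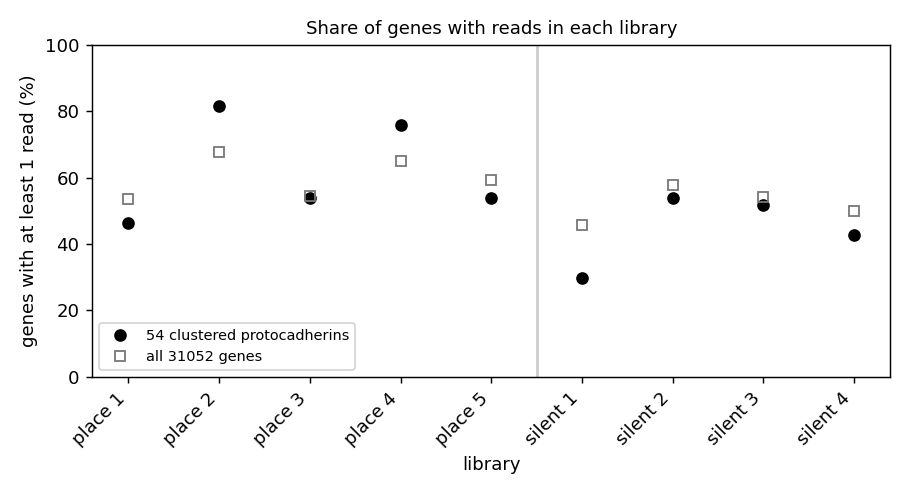
Share of genes with at least 1 read (vertical axis, %) in each of the 9 libraries (horizontal axis), for the 54 clustered protocadherins (filled circles) and all 31052 genes (open squares). The members' share was lowest in silent replicate 1 (29.6%) and highest in place replicate 2 (81.5%), and their share spreads more widely over libraries than that of all genes.

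Few members were shared by every library. Pcdhb17, Pcdhb21, Pcdhga12 and Pcdhgc4 had reads in all 9 libraries, which is 7.41% of the members beside 28.6% of all genes. Another 3 members, Pcdha2, Pcdha7 and Pcdhgb8, had reads in 1 library each, 5.56% of the members beside 22.3% of all genes. For 28 of the 54 members, at least 50% of the level summed over the libraries came from 1 library. The share over all genes was not determined, so this count describes the members without a comparison. Such members were found for 8 of the 9 libraries, with 6 members each for place replicates 2 and 4, 1 for silent replicate 2 and none for silent replicate 1.

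By presence alone, 12 members (22.2%) had reads in place libraries and in no silent library, close to 23.1% of all genes. In the other direction, 0 of 54 members had reads in silent libraries alone, beside 8.03% of all genes. Members with reads in at least 4 place libraries and no silent library numbered 4 (7.41%), beside 0.828% of all genes: Pcdha8, Pcdha11, Pcdhb16 and the C-type Pcdhac2. Of these, Pcdha8 had reads in all 5 place libraries, a layout found in 0.161% of all genes. Pcdha11 is among the 4 through 1 read in place replicate 3 (0.05 RPM), under the limit of 3 reads. It stood at 0.51, 3.95 and 0.21 RPM in place replicates 2, 4 and 5.

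**Figure D2:**
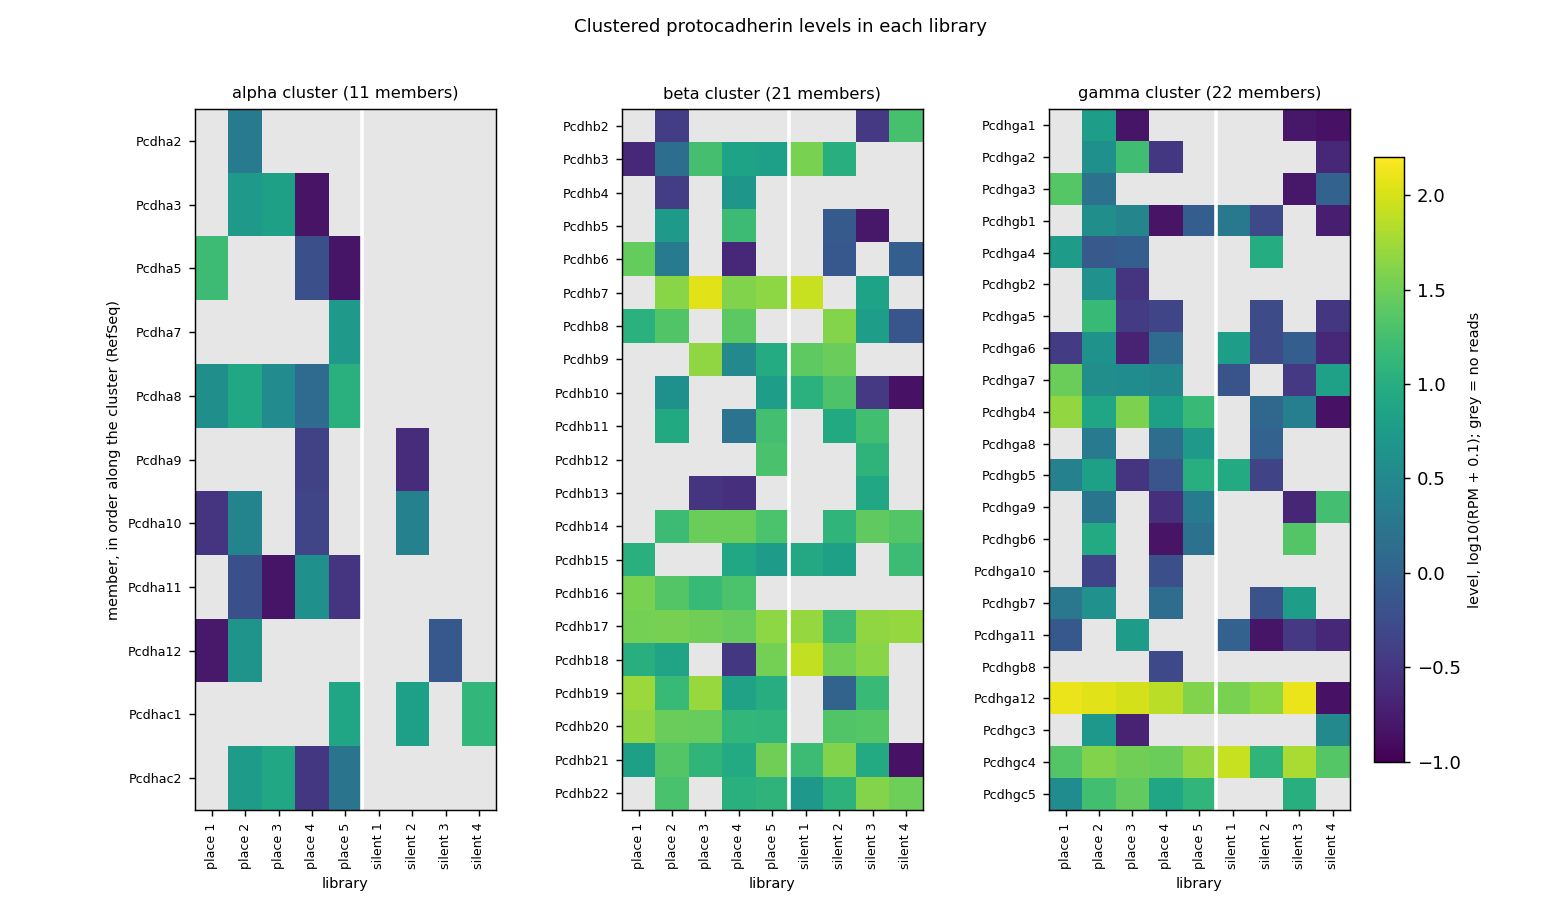
Level of each of the 54 members (rows, in RefSeq order along each cluster) in each library (columns, place left of the white line), as log10(RPM + 0.1) on a colour scale, with grey for no reads. The alpha panel is nearly grey in the silent libraries, the beta panel is filled on both sides, and Pcdhga12 and Pcdhgc4 form nearly unbroken bright rows in the gamma panel.

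Variable alpha isoforms had low levels in place libraries and almost none in silent libraries. Their summed level was 19.4, 22.7, 9.94, 6.41 and 15.9 RPM in place replicates 1 to 5 and 0, 2.62, 0.67 and 0 RPM in silent replicates 1 to 4, that is 14.9 ± 6.68 (SD, n = 5) and 0.82 ± 1.24 (SD, n = 4). Every place library was above every silent library, and the absence of reads in silent replicates 1 and 4 allows up to 0.21 and 0.13 RPM for any isoform. Without silent replicate 2 the silent mean was 0.22 RPM. Between 3 and 6 of the 9 isoforms had reads in each place library and at most 2 in a silent library. As a sum over chosen members this difference carries no test. Oligodendrocyte sums had a higher mean in place libraries with overlapping ranges, and Y-linked transcripts were nearly absent from place replicates 2 to 5. The part of either in the alpha difference was not tested. Oligodendrocyte sums were 1510, 2007, 3549, 312 and 198 RPM in place replicates 1 to 5. In silent replicates 1 to 4 they were 585, 230, 360 and 118 RPM.

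A different isoform led in different libraries. Per kilobase of own exon, the leader was Pcdha5 in place replicate 1, Pcdha8 in place replicates 2 and 5, Pcdha3 in place replicate 3 and Pcdha11 in place replicate 4, with 37.6 to 80.7% of the length-scaled total. In silent replicate 2 nearly all variable alpha reads (94.2%) fell on Pcdha10, which has no length here, and in silent replicate 3 all fell on Pcdha12. The effective number of isoforms, the inverse of the summed squared shares of reads, was 1.51 to 4.25 in place libraries and 1 and 1.12 in the 2 silent libraries with alpha reads.

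Pcdha8 had the highest mean level of the variable alpha isoforms. It stood at 3.78, 7.94, 3.40, 1.23 and 10.6 RPM in place replicates 1 to 5 and had no reads in the 4 silent libraries. The groups do not overlap, and the place mean of 5.39 ± 3.78 RPM (SD, n = 5) is 131-fold above the level of 3 reads over the silent group. That level allows for counting error alone and not for differences between libraries. Pcdha8 passed the filter on low values through place libraries alone, and its silent values, all 0, have no spread. Its p-values are therefore given as a description. In limma across all 15232 genes tested, its unadjusted p was 0.0004 and its adjusted p 0.433. Over 20 alternatives the adjusted p ran from 0.00498, in limma without the intensity trend, to 0.914. It passed the 0.05 threshold in that alternative alone, where it was the 1 member called beside 0.131% of all genes tested; voom on the recovered reads called 0.0263% of genes and no member.

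Pcdha5 stood at 15.3 RPM in place replicate 1, 0.50 in place replicate 4 and 0.05 in place replicate 5, with no reads elsewhere. Pcdha3 stood at 5.23, 6.48 and 0.05 RPM in place replicates 2 to 4 and had no reads in the other 6 libraries. Both were thus carried by 1 or 2 place libraries, and neither passed the filter on low values. The other 6 variable alpha isoforms were at most 5.08 RPM in any library, and Pcdha9, Pcdha10 and Pcdha12 were the ones with reads in silent libraries.

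Beta isoforms were abundant in both groups and no beta member differed beyond the spread between libraries after adjustment. The cluster total was 236, 250, 346, 222 and 274 RPM in place replicates 1 to 5 and 317, 251, 251 and 139 RPM in silent replicates 1 to 4, that is 266 ± 49.0 (SD, n = 5) and 239 ± 74.1 (SD, n = 4). These ranges overlap. Between 10 and 18 of the 21 members had reads in a place library and between 9 and 15 in a silent library. The effective number of beta isoforms was 8.29 ± 2.00 (SD, n = 5) and 6.81 ± 2.36 (SD, n = 4), higher in each library than for the variable alpha or gamma isoforms. Per kilobase, Pcdhb7 led in place replicates 2, 3 and 4 and silent replicate 1, and Pcdhb12 in place replicate 5 and silent replicate 3. Pcdhb20 led in place replicate 1, Pcdhb8 in silent replicate 2 and Pcdhb17 in silent replicate 4. The lead of Pcdhb12 rests on an own exon of 1107 bp out of 3034 bp. In reads, Pcdhb7 led in place replicate 5, Pcdhb17 in silent replicate 3 and Pcdhb19 in place replicate 1, with the other leaders unchanged.

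Pcdhb17 was the most evenly expressed member. Its level was 34.0, 34.6, 32.1, 28.2 and 44.9 RPM in place replicates 1 to 5 and 48.8, 15.4, 46.2 and 49.1 RPM in silent replicates 1 to 4. The highest library was 3.19-fold above the lowest, against 7.05-fold for Pcdhgc4, 897-fold for Pcdhb21 and 2872-fold for Pcdhga12, the other members with reads everywhere; the lowest libraries of the last pair held 1 read each. Its group means were 34.8 ± 6.21 (SD, n = 5) and 39.9 ± 16.4 RPM (SD, n = 4), and limma gave a log2 fold of -0.07 ± 0.51 (SE), adjusted p = 0.990.

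Pcdhb7 varied between absence and one of the highest levels of the family. It stood at 43.0, 112, 39.2 and 45.2 RPM in place replicates 2 to 5 and at 86.4 RPM in silent replicate 1 and 7.01 in silent replicate 3, and had no reads in place replicate 1 or silent replicates 2 and 4. Libraries with and without it occur in both groups (limma, log2 fold 3.24 ± 2.74 (SE), adjusted p = 0.861). Pcdhb18 went the other way in its means, with 10.4, 7.26, 0, 0.23 and 33.7 RPM in place replicates 1 to 5 and 80.3, 33.2, 42.5 and 0 RPM in silent replicates 1 to 4. These values overlap too (limma, log2 fold -2.04 ± 2.96 (SE), adjusted p = 0.912). Leaving out 1 library moved the Pcdhb18 fold between -0.35 (without place replicate 3) and -4.97 (without silent replicate 4), and the Pcdhb7 fold between 1.94 (without silent replicate 2 or 4) and 5.14 (without silent replicate 1).

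Pcdhb16 was seen in place libraries alone, at 36.2, 22.1, 14.7 and 19.5 RPM in place replicates 1 to 4 and with no reads in place replicate 5 or any silent library. Its place mean of 18.5 ± 13.1 RPM (SD, n = 5) is 449-fold above 3 reads over the silent group, a limit for counting error alone. The groups meet at 0 because of place replicate 5 (limma, unadjusted p = 0.00549, adjusted p = 0.8285). Pcdhb16 too passed the filter through place libraries alone, so these p-values are a description. Pcdhb19 stood at 52.5, 14.2, 50.3, 6.86 and 9.83 RPM in place replicates 1 to 5 and at 0, 0.96, 14.2 and 0 RPM in silent replicates 1 to 4. Silent replicate 3 lies within the place range, and the others below it (limma, unadjusted p = 0.0219, adjusted p = 0.861). The remaining 16 beta members had group means between 0, for Pcdhb4 in silent libraries, and 26.0 RPM, for Pcdhb20 in place libraries. Of these, Pcdhb2, Pcdhb4, Pcdhb5, Pcdhb12 and Pcdhb13 did not pass the filter on low values.

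Among the variable gamma isoforms, reads were concentrated on Pcdhga12, the last of the A and B genes before the C-type genes in RefSeq order. The summed level of variable gamma isoforms was 238, 186, 166, 88.9 and 72.6 RPM in place replicates 1 to 5 and 54.2, 59.6, 159 and 25.6 RPM in silent replicates 1 to 4, that is 150 ± 69.0 (SD, n = 5) and 74.5 ± 58.1 (SD, n = 4). Silent replicate 3 falls inside the place range and the other silent libraries lie below it. Without silent replicate 3 the silent mean was 46.5 RPM. Between 7 and 17 of the 19 members had reads in a place library and between 6 and 11 in a silent library. The effective number of isoforms was 2.44 ± 0.58 (SD, n = 5) and 1.79 ± 0.27 (SD, n = 4).

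Pcdhga12 stood at 126, 113, 98.8, 73.2 and 38.9 RPM in place replicates 1 to 5 and at 35.7, 45.8, 127 and 0.04 RPM in silent replicates 1 to 4. It took 53.0 to 82.3% of variable gamma reads in 8 libraries and led them per kilobase as well. In silent replicate 4 it had 1 read, and Pcdhga9, at 17.2 RPM, led with 67.2%. Averaged over the libraries, its 17.7 RPM per kilobase was the highest of the 52 members with a length, ahead of Pcdhgc4 at 11.3, Pcdhb7 at 10.6 and Pcdhb17 at 7.95, while no alpha member passed 1.21. The group means of 90.0 ± 34.7 (SD, n = 5) and 52.1 ± 53.6 RPM (SD, n = 4) differed by less than the spread between libraries (limma, log2 fold 2.97 ± 1.75 (SE), adjusted p = 0.861). The fold was 0.49 without silent replicate 4 and 0.07 without silent replicates 1 and 4 and place replicate 3.

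Pcdhgb4 had the widest separation among the gamma members. It stood at 47.4, 7.60, 37.3, 6.55 and 14.1 RPM in place replicates 1 to 5 and at 0, 1.11, 2.32 and 0.04 RPM in silent replicates 1 to 4. All 5 place libraries lie above all 4 silent libraries, with group means of 22.6 ± 18.6 (SD, n = 5) and 0.868 ± 1.09 RPM (SD, n = 4), a ratio of 26.0. Limma gave a log2 fold of 6.05 ± 1.93 (SE), unadjusted p = 0.00863 and adjusted p = 0.841, and the adjusted p stayed between 0.446 and 0.954 over 20 alternatives. Without silent replicates 1 and 4 and place replicate 3 the log2 fold was 3.05, with place replicate 1, the highest library, kept. Pcdhga7, the A-type gene next to it upstream, stood at 30.5, 3.71, 3.45, 3.05 and 0 RPM in place replicates 1 to 5 and at 0.57, 0, 0.24 and 6.63 RPM in silent replicates 1 to 4, so that its groups overlap (limma, adjusted p = 0.863).

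As a class, all 7 gamma B members had reads in a larger share of place than of silent libraries, a layout seen in 47.1% of all genes and in 37 of the 54 members (68.5%). The opposite layout was seen in 13 members (24.1%), beside 24.2% of all genes. Gamma B isoforms summed to 51.7, 35.0, 40.5, 8.91 and 26.4 RPM in place replicates 1 to 5 and to 10.8, 2.42, 30.4 and 0.13 RPM in silent replicates 1 to 4. The values overlap through silent replicate 3, where Pcdhgb6 at 22.1 RPM made up most of the sum, and place replicate 4. Gamma A members besides Pcdhga7 and Pcdhga12 stayed at or below 22.9 RPM in any library, the highest value being that of Pcdhga3 in place replicate 1.

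**Figure D3:**
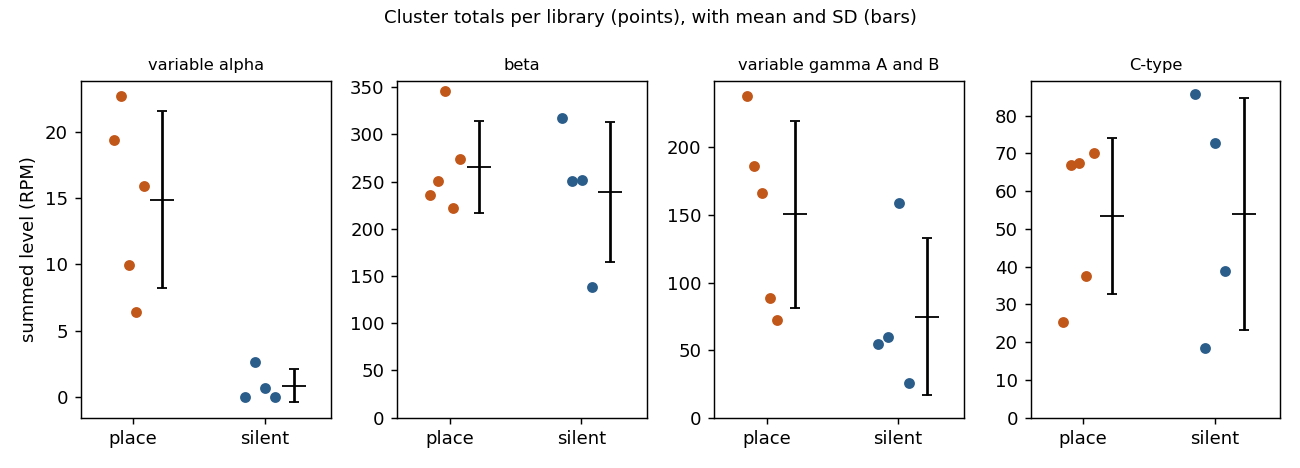
Summed level in RPM (vertical axes, each on its own linear scale) of the variable alpha, beta, variable gamma A and B and C-type isoforms in each place (orange) and silent (blue) library, with the mean and SD of each group as a bar beside the points. Variable alpha sums do not overlap between groups, at 6.41 to 22.7 against 0 to 2.62 RPM, while the other 3 classes overlap.

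C-type isoforms summed to nearly the same mean in both groups. Their total was 25.4, 66.9, 67.4, 37.5 and 70.1 RPM in place replicates 1 to 5 and 85.8, 18.4, 72.7 and 39.0 RPM in silent replicates 1 to 4, that is 53.4 ± 20.6 (SD, n = 5) and 53.95 ± 30.8 (SD, n = 4). Pcdhgc4, required for the survival of interneurons, led the class in every library, per kilobase of own exon and in reads. It stood at 21.8, 39.0, 32.3, 29.8 and 48.1 RPM in place replicates 1 to 5 and at 85.8, 12.2, 62.5 and 22.8 RPM in silent replicates 1 to 4. Silent libraries held both the highest and the lowest value (limma, log2 fold -0.08 ± 0.63 (SE), adjusted p = 0.992).

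Pcdhgc5 stood at 3.52, 17.2, 26.7, 7.45 and 12.8 RPM in place replicates 1 to 5, and at 10.2 RPM in silent replicate 3, with no reads in the other 3 silent libraries. The means of 13.5 ± 9.02 (SD, n = 5) and 2.55 ± 5.09 RPM (SD, n = 4) have a ratio of 5.31, and the groups overlap through silent replicate 3. Limma gave a log2 fold of 5.75 ± 2.06 (SE), unadjusted p = 0.0161 and adjusted p = 0.861, where libraries at 0 make the fold on the log2(value + 1) scale larger than the ratio of means.

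The alpha C-type isoforms differed in layout. Pcdhac2 stood at 5.74, 8.29, 0.23 and 1.60 RPM in place replicates 2 to 5 and had no reads in place replicate 1 or the silent libraries. Its place mean of 3.17 ± 3.67 RPM (SD, n = 5) is 77.1-fold above 3 reads over the silent group, a limit for counting error alone. Pcdhac1 stood at 7.64 RPM in place replicate 5, 6.26 in silent replicate 2 and 13.1 in silent replicate 4, with no reads elsewhere. Of the remaining C-type isoform, Pcdhgc3, place replicate 2 held 5.01 RPM, place replicate 3 held 0.11 and silent replicate 4 held 3.14. None of these 3 passed the filter on low values, and they were not tested.

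**Figure D4:**
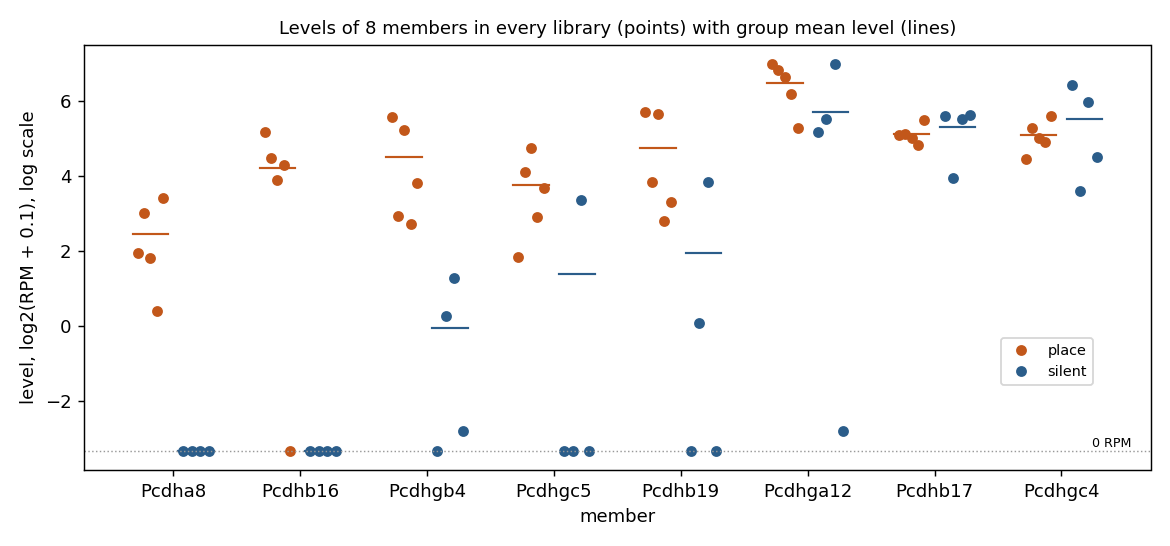
Level of 8 members (horizontal axis) in every library as points on a log scale, log2(RPM + 0.1), with place in orange, silent in blue and the group mean level as a line; points on the dotted line have no reads. Pcdha8 and Pcdhgb4 separate the groups, Pcdhb16, Pcdhgc5 and Pcdhb19 have 1 library that crosses, and Pcdhga12, Pcdhb17 and Pcdhgc4 overlap widely.

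Across the fit, 30 of the 54 members passed the filter, which asks for 4 or more libraries with a value of 10 or more: 1 variable alpha, 16 beta, 11 variable gamma and 2 C-type isoforms. None had an adjusted p under 0.05 in limma, and none of the 15232 genes tested did (0%). At an unadjusted p under 0.05 there were 5 members, Pcdha8, Pcdhb16, Pcdhgb4, Pcdhgc5 and Pcdhb19, all higher in place, beside 5.03% of tested genes, 3.76% higher and 1.27% lower in place. Groups did not overlap for 2 members higher in place, Pcdha8 and Pcdhgb4, and for 0 lower, beside 1.29% and 0.597% of the genes tested. The filter passes on the high group alone, so these counts are given as a description.

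Among the 30 tested members, 22 had a higher and 8 a lower fitted level in place, with a median log2 fold of 1.34, beside 59.0% of tested genes higher and a median of 0.20 over all of them. Beta members were 10 higher and 6 lower, and variable gamma members 10 higher and 1 lower. These are signs on the log2(value + 1) scale, where libraries at 0 weigh heavily. Pcdhga9 counts as higher with a lower mean in place, 0.75 against 4.33 RPM. The same holds for Pcdhga4, Pcdhb3, Pcdhb9, Pcdhb11 and Pcdhgb7, while all 8 members counted as lower had a lower mean. The median depended on the libraries: without silent replicate 4 it was 0.63, with 18 higher and 11 lower. Without silent replicate 1, silent replicate 4 and place replicate 3 together it was 0.39. Scale mattered too, with medians of 1.84 at a pseudocount of 0.1 and 0.86 at 10, beside 0.22 and 0.17 over all genes. On log2(RPM + 0.5) the median was 0.55, beside 0.15 over all genes. With the number of genes detected per library in the fit it was 0.51, beside -0.03 over all genes.

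Genes that act with the clusters did not pass the test either. Of 12 non-clustered protocadherins listed, adhesion proteins encoded outside the clusters, 9 were tested and 0 had an adjusted p under 0.05, with 6 higher and 3 lower in place. Pcdh7 stood at 58.9, 61.5, 137, 29.3 and 19.2 RPM in place replicates 1 to 5 and at 0, 39.8, 36.0 and 0 RPM in silent replicates 1 to 4 (limma, unadjusted p = 0.032, adjusted p = 0.861). Pcdh19, an X-linked adhesion gene, ranged from 30.9 to 64.1 RPM over place libraries, mean 44.9 ± 13.2 (SD, n = 5), and from 47.7 to 114 RPM over silent libraries, mean 83.4 ± 32.1 (SD, n = 4), and these ranges overlap.

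Of 23 genes for promoter choice and chromatin at the clusters, such as the insulator protein CTCF, cohesin and DNA methyltransferases, 22 were tested, 12 were higher and 10 lower in place, and 0 passed. Wapl, which releases cohesin from chromatin, had place and silent means of 114 ± 59.9 (SD, n = 5) and 175 ± 41.0 RPM (SD, n = 4), with an adjusted p of 0.861 in limma. Of 23 partners and signalling genes, 22 were tested, again 12 higher and 10 lower, and 0 passed. Ptk2, the focal adhesion kinase that protocadherins inhibit, stood at 413 ± 40.4 (SD, n = 5) and 328 ± 87.0 RPM (SD, n = 4), with an adjusted p of 0.861 in limma. Pcdh12 was not analysed here.

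Summed over the 54 members, the level was 518, 526, 590, 355 and 433 RPM in place replicates 1 to 5 and 457, 331, 483 and 203 RPM in silent replicates 1 to 4, that is 484 ± 91.5 (SD, n = 5) and 369 ± 129 (SD, n = 4). The ranges overlap. Members took 0.0484 ± 0.0091% and 0.0369 ± 0.0129% of all reads.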

How the data were processed

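Nuclear RNA of 5 place and 4 silent libraries was read from the authors' deposited table, whose values are a normalized read signal; STAR, HTSeq and GRCm39 are named in the submitters' processing notes, while the sources used here give no annotation, strand setting or normalization tool. The deposited values proved to be reads times 1 factor per gene, shared by the 9 libraries, and none per library. Whole reads (within 0.05) were recovered for 29902 of 31052 genes, including all 54 members, and rounded for the rest. Libraries were scaled by trimmed mean of M-values (TMM, trims of 30% and 5%). The test was limma 3.58.1 (R 4.3.3) with intensity trend on log2(scaled value + 1), place minus silent, two-sided. It covered the 15232 genes reaching a value of 10 in 4 or more libraries, Benjamini-Hochberg adjusted over these. A run on simulated reads changed only genes of higher level and did not copy the absence of members from whole libraries. That run does not show how the test behaves for these members. Own-exon lengths came from GENCODE M21 (another build; no coordinates used). The members, gene lists and tests were chosen with earlier results of these data known. Values are given for the C-type isoforms, the 3 members of highest mean level in each cluster outside the C-type, members with an unadjusted p under 0.05 or without overlap, and up to 2 genes of each other list with the smallest p; some of these genes are not reported here. Python 3.11.15 was used for the tables. Alternatives covered scaling, pseudocount, filter, test, covariate and libraries.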

Additional observations from a re-analysis of the deposited data

Results flagged for a closer look

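Dixon's criterion was applied to 46 groups of libraries, for the named members and for cluster totals, member counts and effective numbers. Its chance rate of about 1 in 20 groups does not hold where most libraries are at 0, because 1 library with reads then stands apart. Groups with no reads at all could not be flagged. A library lay far from the others in 10 groups, all of named members, and this count is a description. Among place libraries these were Pcdhac1 in replicate 5 (7.64 RPM, others at 0), Pcdhgc3 in replicate 2 (5.01 RPM, others at most 0.11), Pcdha5 in replicate 1 (15.3 RPM, others at most 0.50) and Pcdhga7 in replicate 1 (30.5 RPM, others at most 3.71). Among silent libraries, Pcdhgc3 stood apart in replicate 4 (3.14 RPM, others at 0), Pcdhgc5 in replicate 3 (10.2 RPM, others at 0), Pcdhb7 in replicate 1 (86.4 RPM, others at most 7.01), Pcdhga7 in replicate 4 (6.63 RPM, others at most 0.57) and Pcdhb19 in replicate 3 (14.2 RPM, others at most 0.96). Pcdhb17 was the low exception, at 15.4 RPM in silent replicate 2 beside 46.2 to 49.1 in the other silent libraries.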

How the results depend on the processing

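Of 220 alternative values for 11 named members, 207 kept the direction and the side of the threshold, 12 changed direction and 1 passed the threshold (Pcdha8 without the intensity trend). Pcdhgc4 turned to 0.16 with voom, 0.23 with genes detected in the fit and 0.27 without the 3 libraries set apart by principal components, and ran from -0.59 to 0.35 on leaving out 1 library (0.07 without place replicate 1, 0.35 and 0.20 without silent replicates 1 and 3). Pcdhb17 turned to 0.30 with genes detected and 0.39 without the 3 libraries, and ran from -0.48 to 0.074 (0.071, 0.045 and 0.074 without silent replicates 1, 3 and 4). Pcdhb18 turned to 0.72 in libraries with Y-linked transcripts. The cause was not tested.

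Genes past the threshold numbered 20 without the intensity trend (1 member), 4 with voom, 15 in libraries with Y-linked transcripts (place replicate 1 and the 4 silent; the lone place library is assumed to vary like the others) and 0 to 1 on leaving out 1 library (1 without place replicate 1); no member was among those of the last 3 settings. Members higher in place numbered 42 of 54 with no filter, 0 of 2 (2 lower, median log2 fold -0.077) with at least 10 in all libraries, 5 of 8 (3 lower) with Y-linked libraries, and 13 of 21 without the 3 libraries; fewer members were tested in the last 3. Silent libraries held 17.8 members with at least 10 reads. Counting C-type isoforms with their cluster, the leading share was 90.2% for silent alpha, 46.3% for place gamma and 56.0% for silent gamma, with effective numbers of 1.25, 3.59 and 2.52; per own-exon length, silent gamma had a leading share of 62.0%, and effective numbers were 3.07 for place and 2.19 for silent gamma.

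No paired analysis was possible because replicate numbers follow the order of deposit and pair no samples. EdgeR and DESeq2 were planned and not run; voom was the test run on the recovered reads. The Y-linked, 3-library, RPM and per-length settings were added after seeing the data. The 3-library setting left out the libraries set apart by components 1 to 3 and kept place replicate 1, set apart by component 4. Depth limits isoforms under 0.21 RPM, and 27 of the 264 member and library pairs with reads rest on 1 to 3 reads.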
